A study of Mus musculus with 8 samples.

Results

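RNA captured on anti-AGO2 beads (AGO2-IP) was set against total RNA in mouse mesangial cells carrying a homozygous deletion at miR-379 (miR-379KO MMC), using 4 of the 8 samples in the series. These were miR-379KO AGO2-IP A and B and miR-379KO total RNA A and B, chosen by their labels, and the other 4 samples are the same assays in wild-type (WT) MMC. The deletion was made with CRISPR-Cas9 nickase in C57BL/6J mice, so both assays compared here carry it, and the cells were grown from sieved glomeruli in RPMI medium with serum to passages 5 to 7, with no treatment and no age given. The letters A and B are not said to be separate cultures or animals, so p-values measure only the spread between these samples. Transcript classes were compared over all 24639 gene entries of each library, and functions over the 9982 genes whose mean was 100 counts or more in miR-379KO total RNA, called expressed genes here.

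AGO2 is the Argonaute protein that holds a mature microRNA and pairs it, through bases 2 to 8 called the seed, with target messenger RNAs, most often in the 3′-untranslated region (3′-UTR). An AGO2-IP library therefore can hold microRNA targets, together with whatever RNA stays with the beads. Small nucleolar RNAs (snoRNAs) guide chemical changes of ribosomal RNA in the nucleolus. C/D box snoRNAs direct 2′-O-methylation and close with a D box, H/ACA box snoRNAs direct pseudouridylation and close with an ACA box, and neither class carries a poly(A) tail.

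The assays also differed in library chemistry. Total RNA was captured by poly(A) tail and made into stranded libraries. AGO2-IP RNA came from lysates that had been cross-linked by UV light and sonicated, and the paper calls its sequencing small RNA-seq, read as paired ends. Adapter ligation without size selection is described in the paper for its libraries of ligated AGO2-IP RNA. Whether it also holds for the AGO2-IP libraries compared here is not stated. An effect of AGO2 binding and an effect of these protocols cannot be told apart in this comparison, and beads with a control antibody were not analysed here.

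The snoRNAs that took the largest shares of AGO2-IP counts are shown to let their ends be compared, since a tail plays no part in them. For the C/D box snoRNAs, capitals mark the last CTGA, the D box letters, and the first TGATGA, the C box letters, where present.
Snord22: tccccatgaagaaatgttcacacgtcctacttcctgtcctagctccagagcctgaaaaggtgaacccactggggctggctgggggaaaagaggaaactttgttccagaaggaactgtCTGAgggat
Snord15b: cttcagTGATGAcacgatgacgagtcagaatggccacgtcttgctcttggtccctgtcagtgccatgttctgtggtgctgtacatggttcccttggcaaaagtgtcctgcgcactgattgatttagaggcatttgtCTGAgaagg
Snord15a: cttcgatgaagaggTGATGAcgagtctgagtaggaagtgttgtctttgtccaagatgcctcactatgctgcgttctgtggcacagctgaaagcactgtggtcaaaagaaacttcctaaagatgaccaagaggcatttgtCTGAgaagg
Snord17: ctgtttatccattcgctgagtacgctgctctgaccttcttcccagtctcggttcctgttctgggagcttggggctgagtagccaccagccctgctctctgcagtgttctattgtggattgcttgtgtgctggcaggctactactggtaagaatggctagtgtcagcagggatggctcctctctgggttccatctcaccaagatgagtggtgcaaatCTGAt

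For the H/ACA box snoRNAs, capitals mark the last ACA.
Snora70: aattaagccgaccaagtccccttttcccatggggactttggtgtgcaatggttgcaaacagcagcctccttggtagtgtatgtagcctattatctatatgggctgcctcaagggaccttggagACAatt
Snora64: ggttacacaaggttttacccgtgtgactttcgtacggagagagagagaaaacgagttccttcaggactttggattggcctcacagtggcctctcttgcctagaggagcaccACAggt
Snora23: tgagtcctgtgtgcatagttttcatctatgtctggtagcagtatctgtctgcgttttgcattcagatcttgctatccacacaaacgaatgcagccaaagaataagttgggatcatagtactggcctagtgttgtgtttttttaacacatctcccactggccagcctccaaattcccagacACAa
Snora78: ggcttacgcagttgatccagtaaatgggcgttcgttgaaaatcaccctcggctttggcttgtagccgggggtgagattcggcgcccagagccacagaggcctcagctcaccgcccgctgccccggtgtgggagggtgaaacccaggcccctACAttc

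These RefSeq sequences are given 5′ to 3′ from build GRCm38.p6. Snord22 lies on chromosome 19 (8725866 to 8725991, plus strand), Snord15b and Snord15a on chromosome 7 (99479563 to 99479707 and 99482785 to 99482932, minus strand), and Snord17 on chromosome 2 (144265982 to 144266202, minus strand). Snora70 lies on chromosome X (74272492 to 74272620, plus strand), Snora23 on chromosome 7 (110046364 to 110046547, plus strand), and Snora64 and Snora78 on chromosome 17 (24720789 to 24720905, plus strand, and 24719676 to 24719832, minus strand). On the transcript strand, CTGA lay in the last 12 bases of 67 of 70 C/D box snoRNAs with a sequence (95.7%) and of 2 of 36 H/ACA box snoRNAs (5.56%). The letters ACA lay in the last 6 bases of 34 of 36 H/ACA box snoRNAs (94.4%), compared to 1 of 70 C/D box snoRNAs (1.43%). TGATGA was found anywhere in 23 of 70 C/D box snoRNAs (32.9%) and in 0 of 36 H/ACA box snoRNAs.

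The deleted microRNA is shown with its seed in capitals.
mmu-miR-379-5p: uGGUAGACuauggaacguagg
Mir379 itself, on chromosome 12 (109709060 to 109709125), had no count in either miR-379KO total RNA library, and 1 and 0 counts in AGO2-IP A and B of the same cells. It had 0 and 4 counts in WT AGO2-IP and 0 in both WT total RNA libraries, so at this depth the gene count does not check the deletion.

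The gene counts were dominated by Rn45s, the precursor of 18S, 5.8S and 28S ribosomal RNA, and by the entry Lars2, a mitochondrial leucyl-tRNA synthetase gene, and both were left out of every total below. Rn45s took 73.0% ± 1.09 of AGO2-IP gene counts (SD, n = 2) compared to 6.34% ± 0.994 in total RNA, and Lars2 took 7.04% ± 1.08 compared to 0.204% ± 0.0366. Without them, 21343315 and 16465536 counts remained in total RNA A and B, and 1308026 and 1115665 in AGO2-IP A and B. Counts were scaled to these totals as CPM, the usual measure of expression that is not corrected for gene length. Reads that the authors assigned to no gene made up 74.9% ± 2.10 of uniquely placed reads in AGO2-IP and 6.73% ± 0.0708 in total RNA. Despite the lower depth, 22679 and 22920 entries had at least 1 count in AGO2-IP, more than the 15625 and 14789 in total RNA.

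Mesangial markers fitted the label in part. Of 15 mesangial and pericyte markers, 11 were expressed genes, with a summed level of 19799 and 19400.0 CPM in total RNA A and B and 6239 and 4948 CPM in AGO2-IP A and B. Pdgfrb, the PDGF receptor of mesangial cells, stood at 194 and 116 CPM in total RNA, whereas Itga8 (29 and 19 counts), Gata3 (70 and 64 counts), Pdgfra (6 and 4 counts) and Thy1 (3 and 0 counts) were low. Tubule, leukocyte and endothelial markers were low in total RNA and higher in sum in AGO2-IP, whereas podocyte markers were not low in total RNA. The 8 tubule markers summed to 21.5 and 13.6 CPM in total RNA, with Slc34a1, Aqp2, Calb1, Umod and Slc12a3 at 0 counts, and to 204 and 281 CPM in AGO2-IP. The 8 leukocyte markers summed to 9.23 and 4.68 CPM in total RNA, with Cd3e at 0, and to 84.1 and 117 CPM in AGO2-IP. The 8 endothelial markers, with Tek at 0, summed to 19.9 and 8.38 CPM in total RNA and to 60.4 and 71.7 CPM in AGO2-IP. The 8 podocyte markers summed to 620 and 342 CPM in total RNA, where Ptpro was at 0 while Synpo, Wt1 and Podxl were present, and to 398 and 236 CPM in AGO2-IP. Each of these 32 markers had counts in both AGO2-IP libraries. Fewer cells of a type and less RNA per cell cannot be told apart in bulk samples.

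Non-coding RNAs made up far more of the AGO2-IP libraries than of total RNA. The RNase MRP and RNase P RNAs, snoRNAs and nuclear long non-coding RNAs each took above 0.9% of AGO2-IP counts, compared to below 0.09% in total RNA. Messenger RNA still made up most of the AGO2-IP counts, with protein-coding genes at 84.0% and 83.4% in A and B, whereas they were at 99.6% in each total RNA library. The 95% Wilson interval of any class share was at most 0.0691 percentage points to either side and covers counting error only. No test was made of class shares, since 2 libraries against 2 cannot give an exact permutation p under 0.333.

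Structured RNAs of the tRNA and rRNA processing enzymes were recovered in large amounts. Rmrp, the RNA subunit of RNase MRP (chromosome 4, 43492785 to 43493059, minus strand), had 5 and 5 counts in total RNA A and B and 34160 and 14612 in AGO2-IP A and B. Rpph1, the RNA subunit of RNase P (chromosome 14, 50807447 to 50807771, minus strand), had 4 and 3 counts in total RNA and 19187 and 11512 in AGO2-IP. The assays did not overlap for either RNA, although AGO2-IP A held more of both than AGO2-IP B. Log2 fold changes, AGO2-IP over total RNA on TMM-scaled counts, were 15.74 ± 0.72 (SE, adjusted p = 4.84e-11, edgeR quasi-likelihood test) for Rmrp and 15.57 ± 0.63 (adjusted p = 3.34e-12) for Rpph1. Terc, the RNA template of telomerase, stayed low, with 0 and 2 counts in total RNA and 6 and 8 in AGO2-IP. The 9 structured RNAs together took 0.0105% and 0.0135% of total RNA counts and 4.09% and 2.35% of AGO2-IP counts.

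One structured RNA ran the other way. Bc1, a short cytoplasmic RNA known from neurons that carries an internal A-rich stretch, had 2234 and 2208 counts in total RNA and 1 and 1 in AGO2-IP. The pooled CPM ratio of AGO2-IP to total RNA was 0.00702, with a 95% counting interval from 0.00085 to 0.0254, and the log2 fold change was −7.54 ± 0.41 (adjusted p = 1.85e-10, edgeR). Mir6236, Mir6240 and Gm20594, short entries at 431 to 1745 counts in each total RNA library, were likewise at 0 to 2 counts in each AGO2-IP library.

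C/D box snoRNAs rose from 0.000651% and 0.00101% of total RNA counts to 2.77% and 2.996% of AGO2-IP counts. A gene was called higher or lower when its adjusted p was under 0.05 and its change at least 2-fold, which held for 39.4% of the 16545 tested genes in the higher direction and 20.5% in the lower. Of 76 C/D box entries, 13 passed the filter on low counts and 12 were called higher, but an entry at 0 in total RNA can pass only through AGO2-IP. The recovery was concentrated, as the 4 most abundant members held 99.4% of the AGO2-IP counts of the class and 5 entries had at least 10 counts in both AGO2-IP libraries.

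Snord22, whose sequence is given above, had 13 and 13 counts in total RNA and 15579 and 18479 in AGO2-IP, with a log2 fold change of 13.90 ± 0.56 (adjusted p = 3.3e-12, edgeR). Snord15b had 0 and 4 counts in total RNA and 12740 and 7109 in AGO2-IP. Snord15a had 0 and 0 counts in total RNA and 4704 and 5095 in AGO2-IP, at least 25292-fold higher when total RNA is set at a floor of 3 counts per library. Both AGO2-IP libraries stood above both total RNA libraries for each of these snoRNAs. Snord17 had 0 and 3 counts in total RNA and 2944 and 2595 in AGO2-IP, a pooled CPM ratio of 28802 with a counting interval from 9850 to 139707.

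H/ACA box snoRNAs were spread over more members. They rose from 0.000693% and 0.00106% of total RNA counts to 0.947% and 0.978% of AGO2-IP counts, and the 28 of 36 entries that passed the filter, with the same limit, were called higher. Of the 36, 25 had at least 10 counts in both AGO2-IP libraries and the 4 most abundant held 61.5% of the class. Snora70 had 11 and 13 counts in total RNA and 3622 and 3576 in AGO2-IP (log2 fold change 11.76 ± 0.44), and Snora64 had 7 and 13 counts compared to 2009 and 2068 (11.19 ± 0.43). Snora23 (2 and 4 counts in total RNA, 852 and 894 in AGO2-IP) and Snora78 (3 and 2 counts, 723 and 533) followed, and the assays did not overlap for any of these RNAs.

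The spliced transcripts that host snoRNAs in their introns moved far less. Snhg1, the host of Snord22 (chromosome 19, 8723487 to 8726326, plus strand), had 19.3 and 28.5 CPM in total RNA and 30.6 and 39.4 CPM in AGO2-IP, with a log2 fold change of 0.14 ± 0.26 (adjusted p = 0.62, edgeR). Gas5, another host, had 60.6 and 74.1 CPM in total RNA and 101 and 125 CPM in AGO2-IP, with a log2 fold change of 0.34 ± 0.20 (adjusted p = 0.122). Neither gene was called, but after background subtraction both were called higher, at 1.01 for Snhg1 and 1.25 for Gas5. Of 17 tested host transcripts, 4 were called higher and 1 lower, beside 39.4% and 20.5% of all tested genes. Of the 11 that were expressed genes, 0 were called higher and 1 lower.

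Cajal body and spliceosomal RNAs were recovered in small numbers. None of the 9 small Cajal body RNAs reached a mean of 100 counts in total RNA, so the 5 that were tested passed the filter through AGO2-IP and their calls say little. Scarna10 had 0 and 0 counts in total RNA and 153 and 81 in AGO2-IP, at least 587-fold higher. Rnu12, the U12 RNA of the minor spliceosome, had 0 and 0 counts in total RNA and 61 and 30 in AGO2-IP, at least 228-fold higher. MicroRNA precursors took 0.115% and 0.131% of AGO2-IP counts, and 40.4% of these fell on Mir1949 alone, at 629 and 565 counts. Of 1193 precursor entries, 257 had a count in both AGO2-IP libraries and 15 were tested. Of these 15, 9 were called higher and 3 lower, beside 39.4% and 20.5% of all tested genes. The 3 lower ones were the 3 that were expressed genes in total RNA. The deposited gene counts thus give little on mature microRNAs themselves.

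Nuclear long non-coding RNAs rose from 0.0829% and 0.0862% of total RNA counts to 2.19% and 2.68% of AGO2-IP counts. Of 12 tested members 10 were called higher, beside 39.4% of all tested genes. Of the 6 expressed ones 4 were called higher, beside 7.22% of all expressed genes. The others can pass the filter on low counts through AGO2-IP alone. Malat1, a nuclear speckle RNA (chromosome 19, 5795690 to 5802672, minus strand), had 492 and 480 CPM in total RNA and 17153 and 20180 CPM in AGO2-IP, a log2 fold change of 4.86 ± 0.38 (adjusted p = 1.66e-08, edgeR). Neat1, the scaffold of paraspeckles (chromosome 19, 5824708 to 5845480, minus strand), had 27.7 and 18.6 CPM in total RNA and 3294 and 4962 CPM in AGO2-IP, a log2 fold change of 7.07 ± 0.39 (adjusted p = 1.91e-10). Both AGO2-IP libraries were far above both total RNA libraries. Meg3, an imprinted RNA, moved less, from 23.8 and 33.6 CPM to 333 and 307 CPM (log2 fold change 3.09 ± 0.23). Kcnq1ot1, an antisense RNA of an imprinted domain, moved from 17.1 and 20.5 CPM to 644 and 888 CPM with a log2 fold change of 4.94 ± 0.27, but this was −1.81 with a GC and length offset (a lowess fit within each library).

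Replication-dependent histone mRNAs, which end in a stem-loop in place of a poly(A) tail, rose from 0.0198% and 0.0135% of total RNA counts to 0.0805% and 0.125% of AGO2-IP counts. Of 49 tested histone genes, 45 were called higher and 1 lower, beside 39.4% higher and 20.5% lower among all tested genes. Nearly all of these pass the filter on low counts only through AGO2-IP, and of the 4 expressed ones 0 were called higher and 1 lower. Hist1h1e moved from 0.89 and 0.911 CPM to 64.2 and 98.6 CPM (log2 fold change 6.07 ± 0.30), and Hist1h4d from 0.141 and 0.304 CPM to 61.9 and 78.9 CPM (7.88 ± 0.36). Histone genes are near-identical copies, so their separate counts are uncertain.

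Pseudogenes rose from 0.0490% and 0.0507% of total RNA counts to 3.62% and 4.58% of AGO2-IP counts, and this class was mostly 1 entry. Mrgpra6 (chromosome 7, 47185717 to 47189416, minus strand), from a family of sensory neuron receptor genes, held 84.5% of the class and was the most abundant entry of the AGO2-IP libraries after Rn45s and Lars2. It had 890 and 627 counts in total RNA and 40067 and 43093 in AGO2-IP, a log2 fold change of 9.36 ± 0.49 (adjusted p = 1.09e-10, edgeR). Other long non-coding RNAs rose from 0.152% and 0.139% to 2.0003% and 2.61%, with 768 of 875 tested entries called higher and 8 lower. Most of these entries pass the filter only through AGO2-IP. Of the 53 expressed ones 15 were called higher and 8 lower, beside 7.22% and 33.9% of all expressed genes. The count of higher calls fell to 195 of 344 when a background per kilobase of exon, described below, was taken off the AGO2-IP counts.

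**Figure D1:**
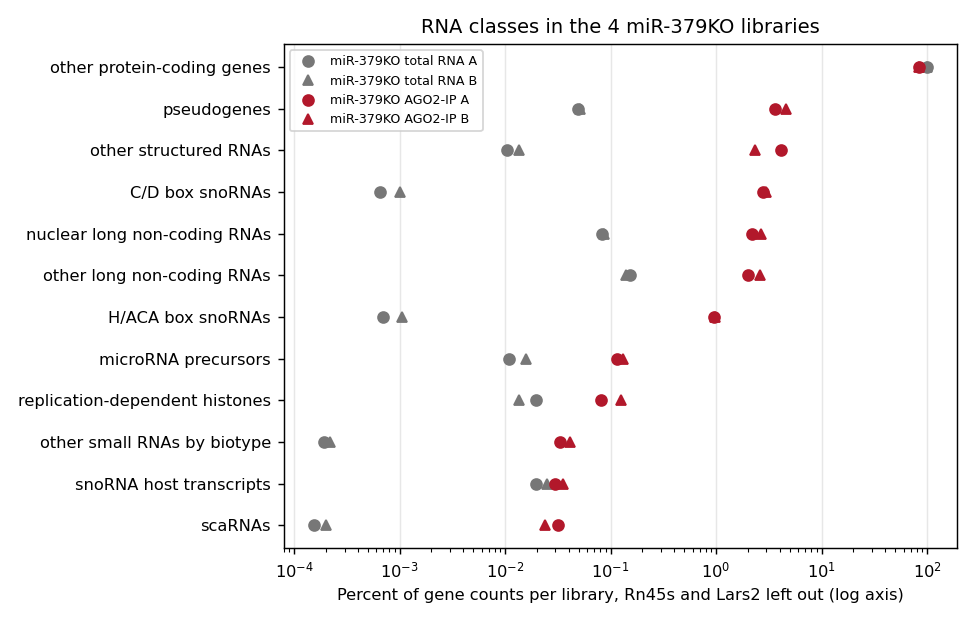
Share of gene counts in percent (log axis) for RNA classes in each of the 4 miR-379KO libraries, total RNA in grey and AGO2-IP in red, with circles for A and triangles for B. Protein-coding genes fell from 99.6% to 84.0% and 83.4%, while every other class shown lies further right in both AGO2-IP libraries than in both total RNA libraries.

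Among the 9982 expressed genes, 721 were called higher in AGO2-IP (7.22%) and 3381 lower (33.9%), and their median log2 fold change was −0.59. This balance depends on the scaling. With TMM factors taken from the expressed genes alone the median of all tested genes moved up by 0.56 on the log2 scale, 1620 expressed genes were called higher and 1645 lower, and with library totals alone it moved up by 0.40, with 1304 higher and 2067 lower. With RLE factors the counts were 848 and 3085. With the GC and length offset 79 of 9962 expressed genes were called higher and 6567 lower, and their median was −1.39. Calls and signs with that offset are to be read beside these values. The changes of gene groups below are therefore given relative to the median of the expressed genes, which moves with these scalings. Of the genes named below, Itgb1, Ccnd2, Tarbp2, Ap3s1, Tgfb3, Rab14 and Tcea1 were no longer called lower with either the expressed-gene factors or library totals alone.

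Single transcripts changed in ways that do not follow one function. The 10 largest increases called among expressed genes were in Mrgpra6, Neat1, A630089N07Rik, Cmah, Tyms, Kcnq1ot1, Intu, Cenpc1, Malat1 and Gm10845. Cmah, which makes the sialic acid Neu5Gc, had 6.75 and 4.798 CPM in total RNA and 392 and 467 CPM in AGO2-IP, a log2 fold change of 5.80 ± 0.26 (adjusted p = 1.39e-11, edgeR). Tyms, the thymidylate synthase gene, had 23.0 and 41.7 CPM in total RNA and 1495 and 2099 CPM in AGO2-IP, a log2 fold change of 5.39 ± 0.35 (adjusted p = 7.07e-09). Cenpc1, which encodes a centromere protein, moved from 30.5 and 28.8 CPM to 941 and 1385 CPM (log2 fold change 4.88 ± 0.28). In each of these genes the gap between the assays was far larger than that between the AGO2-IP libraries, of which B was the higher. Zfp488, a zinc finger gene below the limit for expressed genes with 28 and 25 counts in total RNA, had 7562 and 9139 counts in AGO2-IP.

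The 10 largest decreases were in Bc1, Mir6236, Gm20594, Mir6240, Fos, Ybx1, Egr1, Mt1, Rplp2 and Cotl1. Ybx1, a cold shock domain protein that binds mRNA, had 2419 and 2344 CPM in total RNA and 251 and 223 CPM in AGO2-IP, a log2 fold change of −3.72 ± 0.30 (adjusted p = 2.97e-08, edgeR). Fos, an immediate early transcription factor, had 155 and 63.8 CPM in total RNA and 6.88 and 9.86 CPM in AGO2-IP (−4.12 ± 0.69, adjusted p = 0.00481). Egr1, another one, had 707 and 392 CPM in total RNA and 60.4 and 69.0 CPM in AGO2-IP (−3.49 ± 0.31, adjusted p = 1.92e-07). For Fos and Egr1 the total RNA libraries themselves differed, with A above B. Cotl1, an actin-binding protein gene, moved from 432 and 480 CPM to 75.7 and 46.6 CPM (−3.27 ± 0.28).

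**Figure D2:**
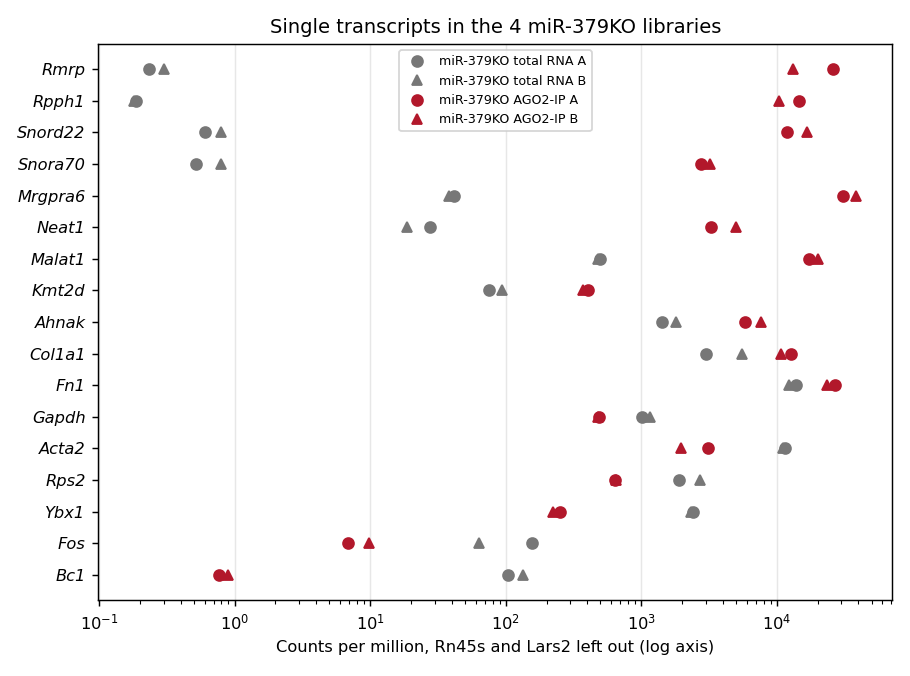
CPM (log axis) of single transcripts in each of the 4 miR-379KO libraries, total RNA in grey and AGO2-IP in red, with circles for A and triangles for B. Rmrp, Rpph1 and the snoRNAs lie below 1 CPM in total RNA and far higher in AGO2-IP, whereas Bc1 and Fos lie to the left in AGO2-IP.

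Genes of the translation machinery were lower in AGO2-IP as a group. Of 79 expressed cytosolic ribosomal protein genes, 77 were called lower and 0 higher, beside 33.9% and 7.22% of all expressed genes. Their median log2 fold change stood 1.64 below that of all expressed genes, or 0.62 below with the GC and length offset. Their summed share was 4.07% and 5.71% of counts in total RNA A and B and 1.41% and 1.36% in AGO2-IP A and B. Rps2 had 1890 and 2694 CPM in total RNA and 642 and 647 CPM in AGO2-IP, a log2 fold change of −2.23 ± 0.30 (adjusted p = 3.23e-06, edgeR). Rplp2, a protein of the ribosomal stalk, moved most in the list, from 300.3 and 389 CPM to 42.8 and 41.2 CPM (−3.43 ± 0.26). Ribosomal protein genes have many processed copies, and reads that fit several places were not counted, so their levels are uncertain. Of 78 mitochondrial ribosomal protein genes, 65 were called lower and 0 higher, and 39 lower and 1 higher with expressed-gene TMM factors. Their median stood 0.96 below that of all expressed genes, or 0.35 below with the offset.

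Translation factors followed with 44 of 60 called lower and 0 higher, beside 33.9% and 7.22% of all expressed genes. The list was taken by symbol and also holds kinases and binding proteins of these factors. With expressed-gene TMM factors 36 were called lower and 2 higher, and after background subtraction 27 and 3. Their median stood 1.12 below that of all expressed genes, or 0.87 below with the GC and length offset. Eef1a1, the elongation factor that brings aminoacyl-tRNA to the ribosome, had 8320 and 10530 CPM in total RNA and 3582 and 3625 CPM in AGO2-IP, a log2 fold change of −1.78 ± 0.33 (adjusted p = 0.000114, edgeR). Eif3h moved from 278 and 417 CPM to 56.6 and 59.2 CPM (−2.98 ± 0.26). The AGO2-IP replicates were closer to each other than the total RNA replicates for both genes. Aminoacyl-tRNA synthetase genes were divided, with 18 of 36 called lower and 2 higher. With expressed-gene TMM factors 10 of these were lower and 3 higher, beside 1645 and 1620 of 9982 expressed genes. Kars, the lysyl-tRNA synthetase gene, moved from 154 and 232 CPM to 42.8 and 31.4 CPM (−2.76 ± 0.27).

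Energy metabolism genes were lower too. Of 76 expressed genes of the respiratory chain and ATP synthase, 71 were called lower and 0 higher. Among all expressed genes 33.9% were called lower and 7.22% higher. The median of the respiratory list stood 1.39 below that of all expressed genes, or 0.57 below with the GC and length offset. Atp5b, the catalytic subunit of ATP synthase, had 1262 and 1660 CPM in total RNA and 336 and 305 CPM in AGO2-IP, a log2 fold change of −2.58 ± 0.28 (adjusted p = 4.61e-07, edgeR). Glycolysis genes stood 1.65 below in the median, or 0.89 below with the offset, and 13 of 15 were called lower. Pkm, which encodes pyruvate kinase, moved from 1583 and 1824 CPM to 446 and 445 CPM (−2.33 ± 0.28), and Gapdh moved less, from 1010 and 1154 CPM to 488 and 480 CPM (−1.56 ± 0.26).

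Protein turnover and folding genes showed the same direction. All 35 expressed proteasome subunit genes were called lower, beside 33.9% of all expressed genes. Their median stood 1.47 below that of all expressed genes, or 1.07 below with the GC and length offset. Psmd2 had 469 and 466 CPM in total RNA and 146 and 135 CPM in AGO2-IP, a log2 fold change of −2.13 ± 0.24 (adjusted p = 5.23e-07, edgeR). Of 26 heat shock and cytosolic chaperone genes, 25 were called lower, and their median stood 1.31 below, or 1.49 below with the offset. Hspa8, the constitutive HSP70, moved from 2726 and 3159 CPM to 859 and 895 CPM (−2.14 ± 0.29), and the small heat shock genes Cryab (−3.23 ± 0.36) and Hspb1 (−2.82 ± 0.29) moved most. Chaperones of the endoplasmic reticulum and the unfolded protein response differed, as 12 of 30 were called lower and 0 higher. Among all expressed genes 33.9% were called lower and 7.22% higher. The median of the ER list stood 0.36 below all expressed genes but 0.16 above them after background subtraction. It was 0.11 above among genes with a mean of 1000 or more counts. Calr, the ER lectin chaperone calreticulin, moved from 1231 and 1349 CPM to 495 and 397 CPM (−1.92 ± 0.27). The ER list had 5 lower and 3 higher calls with expressed-gene TMM factors and 1 lower and 3 higher after background subtraction. Lysosome and V-ATPase genes had 24 of 35 called lower and 0 higher, with 14 lower under those factors and 8 after subtraction.

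Contractile genes of the mesangial cell were among the lowest groups. Of 20 expressed smooth muscle contractile genes, 16 were called lower and 0 higher, beside 33.9% and 7.22% of all expressed genes. Their median stood 1.499 below that of all expressed genes, or 0.86 below with the GC and length offset. Acta2, smooth muscle actin, had 11429 and 11058 CPM in total RNA and 3125 and 1958 CPM in AGO2-IP, a log2 fold change of −2.53 ± 0.37 (adjusted p = 8.38e-06, edgeR). Tagln, an actin-bundling protein gene, moved from 7354 and 6095 CPM to 1261 and 862 CPM (−3.05 ± 0.35), and Cnn1, calponin, from 684 and 467 CPM to 113 and 58.3 CPM (−3.12 ± 0.36). These genes were higher in AGO2-IP A than in AGO2-IP B, a spread smaller than the gap to total RNA. Acta2 and the intermediate filament gene Vim (−2.16 ± 0.32) carried most of the mesangial marker sum given above.

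Short-lived immediate early mRNAs were lower in 24 of 34 genes and higher in 0, beside 33.9% and 7.22% of all expressed genes. Their median stood 0.997 below that of all expressed genes. With expressed-gene TMM factors 17 were called lower and 1 higher, and after background subtraction 18 and 0. Btg2, an antiproliferative gene, had 443 and 217 CPM in total RNA and 71.1 and 57.4 CPM in AGO2-IP, a log2 fold change of −2.75 ± 0.37 (adjusted p = 0.000101, edgeR). Of 41 cell cycle genes, 24 were called lower and 1, Tyms, higher. With expressed-gene TMM factors 16 of these were called lower and 3 higher, and after background subtraction 13 and 3. Cdkn1a, the inhibitor p21, moved from 704 and 500.4 CPM to 161 and 144 CPM (−2.37 ± 0.26), and Ccnd2, a D-type cyclin, from 1860 and 1302 CPM to 1073 and 938 CPM (−1.04 ± 0.29). The hnRNP and SR splicing proteins had 18 of 32 called lower and 0 higher, beside 33.9% and 7.22% of all expressed genes. Their median was 0.46 below all expressed genes and 0.028 above them among genes with 1000 or more counts. With expressed-gene TMM factors 8 of these splicing genes were lower.

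Sterol synthesis genes had 12 of 24 called lower and 0 higher, with a median 0.42 below all expressed genes that turned to 0.21 above among the 12 members with 1000 or more counts. Fdps, the farnesyl diphosphate synthase gene, moved from 69.1 and 88.9 CPM to 13.0 and 19.7 CPM (−2.69 ± 0.26). Small secreted chemokines and cytokines had 5 of 20 called lower and 1 higher, and their median, 0.31 below, was 0.26 above with the GC and length offset. For both lists the share over all expressed genes was 33.9% lower and 7.22% higher. These lists did not stand apart from the expressed genes in a way that all settings shared.

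Collagen genes were higher in AGO2-IP. Of 21 expressed collagen genes, 9 were called higher and 0 lower, beside 7.22% of all expressed genes called higher, and their median log2 fold change stood 1.32 above that of all expressed genes. Collagens held 1.59% and 1.73% of total RNA counts and 3.96% and 3.16% of AGO2-IP counts. Col1a1, the main chain of type I collagen (chromosome 11, 94936224 to 94953042, plus strand), had 3029 and 5494 CPM in total RNA and 12680 and 10718 CPM in AGO2-IP, a log2 fold change of 1.07 ± 0.36 (adjusted p = 0.0132, edgeR). The collagen median stayed above that of the expressed genes with the GC and length offset, by 1.65, and after background subtraction, by 1.58. Of the 21, 2 were called higher with that offset, 15 with expressed-gene TMM factors and 17 after background subtraction, and 0 lower in any of these. Col1a1 itself was not called with the offset (0.78, adjusted p = 0.0597, edgeR), nor when AGO2-IP A (0.95), AGO2-IP B (1.31) or total RNA A (0.84) was left out.

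The calls of other matrix genes depended on the scaling. Of 28 expressed matricellular and matrix glycoprotein genes, 4 were called higher and 5 lower, beside 7.22% and 33.9% of all expressed genes. The median of the list stood 0.55 above all expressed genes. Its summed share of counts went from 4.27% and 3.78% to 5.86% and 5.14%. With expressed-gene TMM factors 11 were called higher and 2 lower, after background subtraction 11 and 0, and with the GC and length offset 0 and 8. That offset called 79 of 9962 expressed genes higher and 6567 lower. Fn1, fibronectin (chromosome 1, 71585473 to 71653280, minus strand), was the most abundant mRNA of both assays at 13958 and 12318 CPM in total RNA and 26751 and 23572 CPM in AGO2-IP. Its log2 fold change of 0.55 ± 0.36 was not called (adjusted p = 0.177, edgeR), and neither was that of Thbs1, thrombospondin 1 (0.37 ± 0.33, adjusted p = 0.318). Fn1 was called higher with expressed-gene TMM factors (1.10) and after background subtraction (1.45), and Thbs1 after background subtraction (1.28). Sparc, a collagen-binding glycoprotein, moved the other way, from 7778 and 6921 CPM to 3433 and 2481 CPM (−1.70 ± 0.33). Of 16 laminin and integrin genes, 2 were called higher and 3 lower, compared to 6 and 0 with expressed-gene TMM factors or after background subtraction and 0 and 5 with the offset. Itgb1, the integrin beta 1 chain, moved from 4538 and 3905 CPM to 2683 and 2310 CPM (−1.15 ± 0.30).

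TGF-beta and BMP signalling genes had 4 of 32 called higher and 4 lower, beside 7.22% and 33.9% of all expressed genes. Their median was 0.25 above all expressed genes and 0.074 below them with the GC and length offset. Tgfb3, a TGF-beta ligand, had 610 and 440 CPM in total RNA and 378 and 238 CPM in AGO2-IP, a log2 fold change of −1.15 ± 0.29 (adjusted p = 0.00227, edgeR). The median was 0.47 above after background subtraction and 0.72 above among the 25 members with 1000 or more counts. Calls were 5 higher and 1 lower with expressed-gene TMM factors and 0 and 21 with the offset. With that offset 79 of 9962 expressed genes were called higher and 6567 lower.

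Genes of very long transcripts were higher in AGO2-IP. Of 40 giant cytoskeletal and scaffold genes, 19 were called higher and 0 lower, beside 7.22% and 33.9% of all expressed genes. The median stood 1.56 above that of all expressed genes, which shrank to 0.33 with the GC and length offset. Ahnak, a giant nucleoprotein gene, had 1432 and 1799.5 CPM in total RNA and 5868 and 7622 CPM in AGO2-IP, a log2 fold change of 1.66 ± 0.31 (adjusted p = 0.000129, edgeR). Syne1, a nuclear envelope spectrin repeat gene, moved from 20.8 and 25.8 CPM to 135 and 193 CPM (2.41 ± 0.21), and Fat4, a protocadherin, from 28.4 and 30.3 CPM to 174 and 147 CPM (2.06 ± 0.20). With the GC and length offset the median of expressed genes was −1.39, Ahnak stood at −0.84, Syne1 at −0.70 and Fat4 at 0.21, and none of these was called higher. Of the 40 genes, 0 were then called higher and 24 lower, beside 79 and 6567 of 9962 expressed genes. With expressed-gene TMM factors 26 of the 40 were called higher and 0 lower. The median exon length of this list was 12991 bases, compared to 775 bases for the cytosolic ribosomal protein genes and 6450 bases for the collagens.

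Chromatin modifiers and zinc finger genes stood above the expressed genes by 0.89 each in the median. In the main fit 7.22% of all expressed genes were called higher and 33.9% lower. Of 55 chromatin modifier and remodeller genes, 10 were called higher and 1 lower, compared to 25 and 0 with expressed-gene TMM factors and 0 and 20 with the GC and length offset. Kmt2d, a histone H3 lysine 4 methyltransferase, had 75.3 and 93.2 CPM in total RNA and 407 and 373 CPM in AGO2-IP, a log2 fold change of 1.82 ± 0.22 (adjusted p = 1.27e-06, edgeR). Tet2, a DNA demethylation enzyme, moved from 17.7 and 11.1 CPM to 70.3 and 79.8 CPM (1.98 ± 0.24). With the GC and length offset neither was called, at 0.02 for Kmt2d and 0.28 for Tet2. Of 220 expressed Zfp genes, chosen by symbol, 57 were called higher and 15 lower, compared to 91 and 2 with expressed-gene TMM factors and 2 and 124 with the offset. Their median stood 0.27 above with the GC and length offset, which called 79 of 9962 expressed genes higher and 6567 lower. Zinc finger genes share similar repeats, so reads may have been lost unevenly between them.

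**Figure D3:**
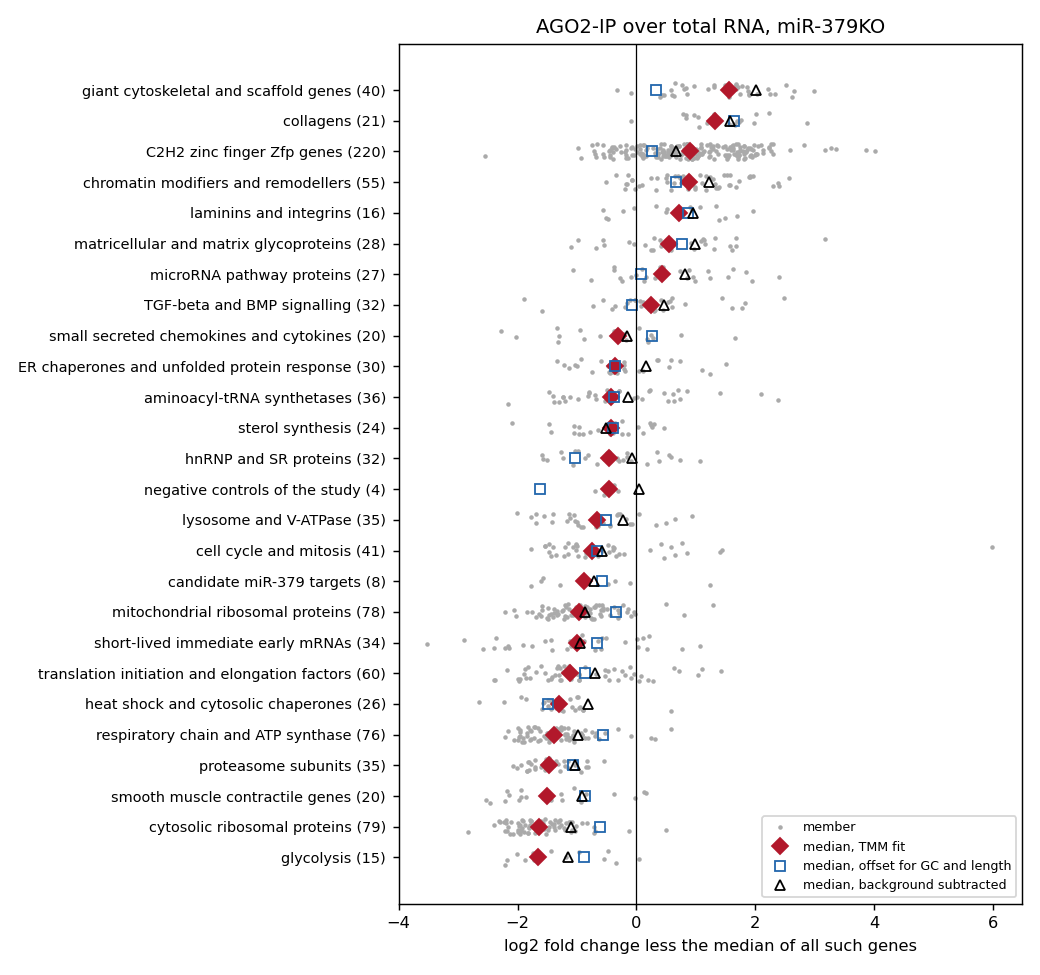
Log2 fold change of AGO2-IP over total RNA in miR-379KO MMC for expressed members of each gene list, less the median of all expressed genes, with the number of members in brackets. Grey points are genes, red diamonds the list medians, blue squares the medians with the GC and length offset and black triangles those after background subtraction; medians run from −1.65 for glycolysis to 1.56 for the giant scaffold genes.

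Genes of the microRNA pathway moved in both directions. Of 27 expressed pathway genes, 4 were called higher and 2 lower, beside 7.22% and 33.9% of all expressed genes. The median stood 0.44 above that of all expressed genes and 0.08 above with the GC and length offset. It was 0.82 above after background subtraction and 0.66 above among the 15 members with 1000 or more counts. Calls were 7 higher and 1 lower with expressed-gene TMM factors, 8 and 1 after background subtraction and 0 and 17 with the offset. With that offset 79 of 9962 expressed genes were called higher and 6567 lower. Ago2, which encodes the protein captured by the beads, had 125 and 150.1 CPM in total RNA and 200.3 and 199.9 CPM in AGO2-IP, a log2 fold change of 0.14 ± 0.20 that was not called (adjusted p = 0.537, edgeR). Ago3 had 15.7 and 14.8 CPM in total RNA and 68.8 and 72.6 CPM in AGO2-IP and was called higher (1.82 ± 0.21), whereas Ago1 at 72.1 and 65.5 CPM compared to 66.5 and 65.4 CPM was not called (−0.46 ± 0.20).

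Partners of AGO2 in repression were divided. Tnrc6b, a GW182 scaffold protein gene, moved from 96.5 and 92.9 CPM to 267 and 242 CPM (1.03 ± 0.20, adjusted p = 0.000202, edgeR), and the deadenylase genes Pan2 (1.25 ± 0.26) and Pan3 (1.35 ± 0.20) were called higher. Cnot8, of the CCR4-NOT deadenylase, moved from 55.3 and 53.6 CPM to 25.2 and 19.7 CPM (−1.66 ± 0.24), and Tarbp2, a partner of Dicer, from 27.5 and 36.8 CPM to 13.0 and 20.6 CPM (−1.35 ± 0.28). With the GC and length offset, where the median of expressed genes was −1.39, Ago3 stood at −0.30 and Tnrc6b at −1.46. Pan2 (0.76) and Pan3 (0.44) were not called. Ago3, Pan2 and Pan3 lay above that median and Tnrc6b below it.

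The 8 genes studied as candidate miR-379 targets were mostly lower in AGO2-IP in both genotypes. Of these, 5 were called lower and 0 higher, beside 33.9% of expressed genes called lower, with a median 0.88 below that of all expressed genes, compared to 0.82 below in WT MMC. With expressed-gene TMM factors, totals only or background subtraction, 4 were called lower and 1, Edem3, higher. Txn1, thioredoxin, had 212 and 241 CPM in total RNA and 64.2 and 50.2 CPM in AGO2-IP, a log2 fold change of −2.37 ± 0.23 (adjusted p = 1.77e-07, edgeR). Fis1, a mitochondrial fission protein gene, moved from 66.5 and 73.5 CPM to 29.8 and 19.7 CPM (−1.87 ± 0.24). The other lower genes were Hnrnpc, which encodes a nuclear RNA-binding protein (−2.16 ± 0.23), Clta, a clathrin light chain (−2.20 ± 0.25), and Ap3s1, an adaptor complex subunit (−1.07 ± 0.20). The study ranked candidates by reads at the miR-379 site over the rest of the 3′-UTR, in WT against miR-379KO AGO2-IP. It also used reads joining miR-379 to Fis1, qPCR of AGO2-IP RNA, and reporter assays for Fis1 and Txn1. Whole-gene counts against total RNA, in cells without miR-379, are another measure and do not test those results.

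Edem3, an ER mannosidase of glycoprotein degradation, had 66.7 and 53.6 CPM in total RNA and 134 and 115 CPM in AGO2-IP, and its log2 fold change of 0.66 ± 0.20 (adjusted p = 0.00766, edgeR) was under the 2-fold limit. It was called higher with expressed-gene TMM factors (1.21), totals only (1.05) and after background subtraction (1.34). With the GC and length offset it was −1.25, where the median of expressed genes was −1.39. Vegfb, a growth factor gene (−0.95 ± 0.37), and Slc20a1, a phosphate transporter gene (−0.70 ± 0.21), were under the 2-fold limit as well. Edem3 was thus the single candidate with more CPM in both AGO2-IP libraries than in both total RNA libraries. Among the 4 negative control genes of the study, Tcea1 (−1.29 ± 0.21) and Rab14 (−1.13 ± 0.22) were called lower and Snrpe (−0.97 ± 0.25) and Hmgb1 (−0.90 ± 0.24) were not, and with expressed-gene TMM factors 0 of the 4 were called. Candidate and control ranges overlapped, since candidates ran from −2.37 to 0.66 and controls from −1.29 to −0.90. The median exon length was 1685 bases for candidates and 2964 bases for controls. With the GC and length offset the order turned, as the candidate median stood 0.58 and the control median 1.62 below all expressed genes.

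Exon length ran with the change across expressed genes. In 5 equal groups of the 9962 expressed genes with an annotated length, the median log2 fold change was −1.47 in the shortest group, of 109 to 1829 bases, then −0.92, −0.68 and −0.25, and 0.24 in the longest, of 5440 to 83437 bases. Spearman's rho was 0.589 across these genes, and 0.772 across the 3851 with a mean of 1000 or more counts, where the group medians ran from −1.98 to −0.09. Genes are not independent replicates and share the libraries, so no p is given. In the shortest group 13 genes were called higher and 1397 lower, in the longest 414 and 90.

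The trend was also present after background subtraction, with group medians from −1.003 to 0.58, and in WT MMC, with medians from −0.91 to 0.27. Longer 3′-UTRs went with higher values, with rho 0.372 across 9870 genes and medians from −1.13 in the group with the shortest to −0.01 in that with the longest. GC content ran the other way, with rho −0.292 across 9962 genes. Abundance in total RNA went with lower values, with rho −0.522 and medians of 0.26 in the least and −1.32 in the most abundant group. This abundance is also the denominator of the change, so part of a negative rho is built in. After background subtraction the medians of these groups were −0.083 and −0.57. Length, GC content and abundance are related to each other and to gene function, and their separate parts in the list differences were not tested. The offset was fitted to these same data, so it cannot separate them.

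**Figure D4:**
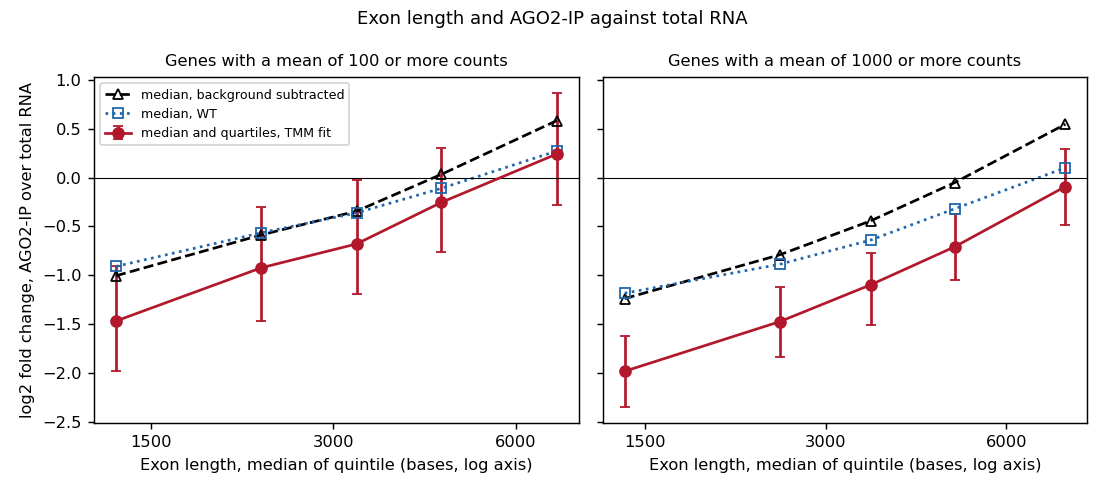
Median log2 fold change of AGO2-IP over total RNA against the median exon length (log axis, bases) of 5 equal groups of genes, for genes averaging 100 or more counts (left) and 1000 or more counts (right) in miR-379KO total RNA. Red circles are miR-379KO medians with bars to the quartiles, black triangles the medians after background subtraction and blue squares those in WT MMC; all rise with length, from −1.47 to 0.24 and from −1.98 to −0.09 in the main fit.

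Genes under a mean of 100 counts in total RNA made up most of the higher calls. Of 6563 such tested genes, 5802 were called higher (88.4%) and 7 lower, but many could pass the filter on low counts only through AGO2-IP, so this share is no measure of them. The limit fell between Zim1 (144 and 56 counts) and Igsf5 (169 and 31 counts) just inside and Pyroxd2 (118 and 81 counts) and Napepld (133 and 66 counts) just outside. Of 8529 entries with 0 counts in both total RNA libraries, 6390 had counts in both AGO2-IP libraries. Col19a1, a collagen not among the expressed genes, had 0 and 0 counts in total RNA and 77 and 69 in AGO2-IP, at least 374-fold higher.

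The level of such silent genes gives a measure of background. The 5801 protein-coding entries at 0 in both miR-379KO total RNA libraries held 3.04 (A) and 3.51 (B) counts per kilobase of exon in the AGO2-IP libraries of these cells, compared to 1.37 and 0.909 in WT AGO2-IP A and B. At that density, background would make up 10.9% and 15.1% of the AGO2-IP A and B counts on expressed genes. When it was subtracted, 2780 genes under a mean of 100 counts were tested, of which 1503 were called higher and 85 lower, and expressed genes were called higher in 1042 and lower in 1859 cases. Reads outside genes were also more frequent in miR-379KO AGO2-IP, at 74.9% compared to 48.1% ± 2.20 in WT AGO2-IP. Within WT AGO2-IP the replicate with the higher density, A, had the lower share, at 46.6% compared to 49.7% in B. These densities are not scaled to library depth. The part of reads outside genes in the low-count increases was not tested.

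The assays differed in the same direction for these classes in WT MMC. C/D box snoRNAs took 2.26% ± 1.04 of WT AGO2-IP counts compared to 2.88% ± 0.159 in miR-379KO AGO2-IP, a gap smaller than the WT spread. Structured RNAs took 3.51% ± 0.764 compared to 3.22% ± 1.23, again within the spread. Nuclear long non-coding RNAs took 2.70% ± 0.0749 compared to 2.43% ± 0.352, a gap larger than the WT spread but smaller than that in miR-379KO. Pseudogenes took 0.980% ± 0.0439 in WT compared to 4.10% ± 0.681, and other long non-coding RNAs 0.750% ± 0.137 compared to 2.31% ± 0.433, both gaps larger than the spread of either group.

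Whether the difference between the assays itself differed between genotypes was tested gene by gene over all 8 libraries. Of 18185 genes, 0 passed in either direction (0%) in edgeR's quasi-likelihood test with Benjamini-Hochberg adjustment, while 2796 had an unadjusted p under 0.05, and DESeq2 called 17 as more and 71 as less enriched in miR-379KO. Mrgpra6 was at 7535 CPM ± 10.1 in WT AGO2-IP and 34628 CPM ± 5652 in miR-379KO AGO2-IP, with an interaction of 1.88 on the log2 scale (adjusted p = 0.224). Cmah had an interaction of 2.40 (adjusted p = 0.182) and Zfp488 one of 2.15 (adjusted p = 0.212), neither of which passed.

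Among the lists, the medians of collagens (1.68 above the expressed genes in WT, 1.32 in miR-379KO), giant scaffold genes (1.49 and 1.56) and chromatin modifiers (0.93 and 0.89) lay close in the genotypes. Immediate early mRNAs were 0.02 below in WT and 0.997 below in miR-379KO, and contractile genes 0.65 and 1.499 below. The WT total RNA libraries differed widely for the former, with Fos at 70 and 1345 counts in A and B. These differences between list medians were not tested.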

How the data were processed

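The deposited values are gene counts, whole reads that the authors had not normalized, with 1 list for each sample. Libraries of total RNA were prepared by the authors with a KAPA stranded mRNA kit, and those of AGO2-IP with anti-mouse AGO2 beads after UV cross-linking. Reads were aligned by the authors to mm10 (GRCm38) with TopHat and counted on UCSC RefSeq genes with HTSeq 0.6.0 in reverse-stranded mode, and the submitters' processing notes also name Bowtie2 2.1.0.1. Strand was used, which separates antisense genes, but reads that fit several near-identical copies were lost. Closing summary lines were dropped, as were entries that name no gene, which held at most 0.0021% of gene counts in any miR-379KO library.

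Of the 24639 entries, 23662 were matched to RefSeq genes of GRCm38.p6 by symbol and 724 by synonym, 126 matched on another chromosome and gave only a biotype, and 127 had no match. Coordinates are 1-based.

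Rn45s and Lars2 were left out of the table and the totals. AGO2-IP was compared with total RNA over the 4 miR-379KO libraries by the quasi-likelihood F test of edgeR 4.0.16 (R 4.3.3), with TMM factors, robust fitting, filterByExpr at a minimum count of 10, and Benjamini-Hochberg adjustment over all tested genes. The interaction was fitted on all 8 libraries. Functions were described by counts and medians only, over 24 lists chosen by symbol and the candidate and control genes of the study. The lists, members and tests were chosen with earlier results of these data known. Named genes were the candidates, controls and microRNA pathway genes, the 10 largest and 10 smallest changes among expressed genes called without overlap, the 4 most abundant members per class in AGO2-IP, 2 members per list by level and 2 by change, the 5 highest and 5 lowest of all tested genes, cell type markers, and the genes next to the limit of 100 counts. The text does not name every gene that met this rule, and 1 is not reported here. Scripts were tested on simulated counts.

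Alternatives were the replicate letter as a block, RLE factors, totals only, TMM factors from expressed genes, DESeq2 1.42.0, other filters, Rn45s and Lars2 kept, all 8 libraries together, a lowess offset (span 0.3) for length and GC, and omission of each replicate. That offset together with the block, background subtraction, and omission of replicates for the lists were added after the data were seen. Background per kilobase was the density over protein-coding entries at 0 in miR-379KO total RNA. Replicates did not agree within sampling noise, with a chi-square per degree of freedom of 36.4 in total RNA and 2.90 in AGO2-IP. Floors and intervals cover counting error only.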

Additional observations from a re-analysis of the deposited data

Results flagged for a closer look

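Reads assigned to no gene lie outside the gene counts compared above. They made up 74.9% of uniquely placed reads in miR-379KO AGO2-IP (73.4% and 76.4% in A and B), above the 6.68% and 6.78% in miR-379KO total RNA. The deposited lists give only their number, so where they lie in the genome was not analysed here.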

How the results depend on the processing

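The depth of the AGO2-IP libraries limits what low genes can show, and the causes of the shifts below were not tested. Over all tested genes, higher calls were 12234 without a filter (more genes tested), 1790 with a mean of 50 counts (fewer tested), 2545 after background subtraction, and 3481 to 5988 with 1 library left out. Lower calls were 2070 with totals only, 1647 with TMM factors from expressed genes, 1747 with a mean of 50 counts, 6670 with the GC and length offset, 6711 with the replicate block and that offset, 1944 after background subtraction, and 2767 to 3211 with 1 library left out. Among expressed genes, higher and lower calls were 1304 and 2067 with totals only, 1620 and 1645 with expressed-gene factors, 1528 and 1747 with a mean of 50 counts, 79 and 6567 with the offset, 81 and 6609 with the block and offset, and 1859 were lower after background subtraction. With 1 library left out they were 724 to 1050 and 2762 to 3208.

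Samples A and B share only a letter across the assays, and same-letter deviations correlated at 0.17 over 10290 genes, so the pairing is no part of the design. The replicate block gave 6470 higher and 3438 lower calls (734 and 3429 among expressed genes). For the interaction it gave 9 genes more and 23 less enriched in miR-379KO, DESeq2 17 and 71, and leaving out 1 library 0 and 0 to 1, the 1 without total RNA B. With Rn45s and Lars2 kept, AGO2-IP shares were 0.576% for C/D box snoRNAs, 0.192% for H/ACA box snoRNAs, 0.643% for structured RNAs and 0.486% for nuclear long non-coding RNAs, since the totals grew.

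List medians turned from below to above the expressed genes for sterol synthesis (0.21), ER chaperones (0.11) and hnRNP and SR proteins (0.028) at a mean of 1000 counts, for ER chaperones (0.16) and negative controls (0.048) after background subtraction, and for small secreted factors (0.26) with the offset, while TGF-beta signalling fell to −0.074 with it. With the offset, and with block and offset, log2 fold changes turned negative for Kcnq1ot1 (−1.81 and −1.80), Tnrc6b (−1.46 and −1.46), Edem3 (−1.25 and −1.26), Ahnak (−0.84 and −0.81), Snhg1 (−0.79 and −0.78), Syne1 (−0.70 and −0.68), Ago2 (−0.64 and −0.62), Ago3 (−0.30 and −0.30), Thbs1 (−0.30 and −0.31) and Fn1 (−0.054 and −0.059). The median of expressed genes was −1.39 in both of these fits, and of the genes just named only Kcnq1ot1 and Tnrc6b lay below it. Without a filter the Ago2 log2 fold change was −0.0126 and the Snhg1 log2 fold change −0.0136. Ago1 was 0.099 with expressed-gene factors and 0.059 with a mean of 50 counts, and Slc20a1 was 0.044 after background subtraction.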
